A study of Rattus norvegicus with 40 samples.

Results

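The 10 genes described here encode proteins of mature myelin: Mbp, Mog, Mag, Mobp, Cnp, Cldn11, Mal, Ermn, Opalin and Aspa. They were chosen by symbol, and each was represented by the probe set that carried this symbol alone in the platform's gene table. All 10 were found among the 14506 genes so measured. Mbp had 2 such probe sets, of which the one with the higher mean was used, and each of the other 9 genes had 1. RNA came from the hippocampus of rats killed at postnatal day 55 and was hybridised to 1 array per sample. Chow held lead acetate at 250 or 750 ppm in 1 of 2 windows, to ask how dose and developmental period of exposure bear on hippocampal expression. Perinatal exposure ran through the dams' chow, begun 10 days before they were bred and continued up to weaning, and postnatal exposure ran from birth to postnatal day 45. The 8 exposed groups were males and females at 250 ppm perinatal, 750 ppm perinatal, 250 ppm postnatal and 750 ppm postnatal. The 2 control groups were males and females on chow without lead, and each of the 10 groups held 4 arrays. All groups ate control chow in the last days before death, and the labels do not say which rats shared a litter, so p-values measure only the spread between these samples.

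Myelin is the stack of oligodendrocyte membrane wrapped around axons, and it lets action potentials jump between nodes. Its genes are switched on together when an oligodendrocyte matures, under transcription factors that include Sox10, Olig2 and the myelin regulatory factor Myrf. In the rat forebrain this happens mainly in the weeks after birth, so both exposure windows overlap with it. In the hippocampus most myelin lies in the alveus, the fimbria and the perforant path. Some of the proteins build the compact layers (Mbp, Mobp, Cldn11 and Mal), others sit at the uncompacted loops, the inner edge or the outer surface (Cnp, Mag, Mog, Ermn and Opalin), and Aspa supplies acetate for myelin lipids.

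The labelled tissue carried the myelin signal in every sample. Mbp lay between 11.87 and 12.46 log2 over the 40 arrays, and its mean was above 98.8% of probe sets. Signals of different probe sets depend on their probes, so genes are not ranked by level here. Array medians lay between 6.96 and 7.06 log2. The replicate numbers of arrays used here were given in the order in which the samples are listed, since the labels give none, and they pair no samples. On 3 control arrays (male replicate 4, female replicates 1 and 3) the X-linked gene Eif2s3 went against the sex label, so these groups are the arrays labelled male or female control. On 3 exposed arrays (males at 250 ppm perinatal, replicates 1 and 3, and males at 750 ppm perinatal, replicate 1) bright probe sets were dimmer and dim ones brighter than elsewhere, and these are called flattened here. Slopes on the mean of all arrays, minus 1, were as low as -0.0325 there, against -0.0132 or higher on all other arrays. The titles carry sample numbers from 3 separate blocks. Both control groups and the females at 750 ppm perinatal have numbers from the lowest block. For the other 7 exposed groups, exposure cannot be told apart from number block.

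Promoter sequence was taken from the RefSeq table for build GRCr8, which held 8 of the 10 genes, in 9 windows. Mog and Ermn were not matched. Signals of Cldn11, Cnp and Mal varied together across arrays, as did those of most pairs of the 10 genes, and their annotated genes begin at the start used in the table. The windows of these genes are shown as examples. Each is the 250 bases before the start, 5′ to 3′ in the direction of the gene. Cldn11 is on the minus strand at chr2:114149540-114149789, Cnp on the plus strand at chr10:86011254-86011503 and Mal on the minus strand at chr3:135341424-135341673. Capitals mark motif matches on either strand, and no matches overlap in these 3 windows.
Cldn11: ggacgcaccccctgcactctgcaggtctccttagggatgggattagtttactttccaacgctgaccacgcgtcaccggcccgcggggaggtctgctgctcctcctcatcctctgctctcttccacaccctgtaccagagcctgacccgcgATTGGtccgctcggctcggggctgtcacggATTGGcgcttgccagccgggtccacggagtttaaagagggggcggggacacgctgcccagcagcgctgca
Cnp: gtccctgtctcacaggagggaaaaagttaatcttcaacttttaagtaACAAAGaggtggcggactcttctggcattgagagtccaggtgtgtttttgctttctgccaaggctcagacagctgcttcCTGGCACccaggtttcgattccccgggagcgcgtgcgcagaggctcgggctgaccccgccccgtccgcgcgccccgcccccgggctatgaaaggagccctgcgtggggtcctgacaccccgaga
Mal: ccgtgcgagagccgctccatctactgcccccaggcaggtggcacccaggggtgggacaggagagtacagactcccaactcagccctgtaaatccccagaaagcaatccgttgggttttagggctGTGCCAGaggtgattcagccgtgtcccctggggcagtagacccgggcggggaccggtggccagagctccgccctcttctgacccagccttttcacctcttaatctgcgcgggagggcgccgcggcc

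The motifs searched on both strands were ACAAAG and, as a second form, ACAATG, which match the binding preference of SOX factors. CTGGCAC, which matches that of MYRF, was searched too, as were the core promoter words TATAAA and, separately, CCAAT. The MYRF-type CTGGCAC was in 4 of the 9 windows (Cnp, Mag, Mal and Opalin), against 3.78% of the 33469 windows in the table. ACAAAG was in 5 (Cnp, Mag, one of the Mbp windows, Mobp and Opalin), against 16.3% of all windows. ACAATG was in 3 of the 9, against 11.1%. The Mobp window held ACAAAG 8 times, all on the opposite strand. TATAAA was in the Aspa window alone and CCAAT in the Cldn11 window alone, against 12.9% and 34.0% of all windows. The 9 windows had a median of 60.4% G and C, against 51.2% in all windows. The part of this base content in the motif counts was not tested. The CTGGCAC matches are set beside each other with 10 bases on each side, in the direction of the gene. In Cnp and Mag the motif reads forward and in Mal and Opalin as its reverse complement. They lie at chr10:86011370-86011396 (plus strand, Cnp), chr1:95291122-95291148 (minus strand, Mag), chr3:135341533-135341559 (minus strand, Mal) and chr1:249858191-249858217 (minus strand, Opalin).
Cnp: cagctgcttcCTGGCACccaggtttcg
Mag: caggcggcccCTGGCACccagggggca
Mal: ttttagggctGTGCCAGaggtgattca
Opalin: cagacctacaGTGCCAGtgagagagaa
The matches begin 124, 94, 126 and 17 bases before the start used in the table, in that order. A match of letters is a description of the window, and the arrays did not measure binding.

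All 10 genes averaged higher over the 8 lead-exposed groups than over the 2 control groups, and 4 passed the test across all probe sets: Cldn11, Cnp, Mag and Mog. The differences ran from 0.06 (Ermn) to 0.24 log2 (Mog), with a median of 0.19 log2, against a median of 0.00 over all 29214 probe sets. The test was limma's, fitted to all 40 arrays with a mean for each group, and a probe set was called at a Benjamini-Hochberg adjusted p under 0.05. It called 0.301% of all probe sets higher in this comparison (0.38% in either direction), and 51.7% averaged above controls. At an unadjusted p under 0.05, 8 of the 10 genes were higher, all but Ermn and Opalin, against 4.92% of all probe sets. Within groups the 10 genes varied together (median pairwise r of 0.64, described below). Counts out of 10, here and in the paragraphs below, are therefore not counts of independent observations. None of the 4 calls was kept without the 3 control arrays that went against their sex label (adjusted p = 0.0677 to 0.102), although the differences there were 0.18 to 0.28 log2 (0.0924% of all probe sets called higher in that fit). With single arrays left out, 1 call (Cldn11) remained without male control replicate 3 or female control replicate 4, and 2 (Cnp and Cldn11) without male control replicate 2 or female control replicate 3. In the same order, 0.113%, 0.12%, 0.12% and 0.0993% of all probe sets were called higher in these 4 fits. Both control groups have title numbers from the lowest block, and all exposed groups but 1 have numbers from other blocks. Exposure therefore cannot be told apart from number block in most of this comparison. In the exposed group of the controls' block, females at 750 ppm perinatal, the median difference from female controls was 0.14 log2, with no call. The arrays measured whole tissue, so a different number of oligodendrocytes and a different amount of myelin RNA per oligodendrocyte cannot be told apart in any of the values.

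Among the proteins of compact myelin, Cldn11, which forms the tight junctions between the membrane layers of central myelin, showed the smallest p. It ran from 11.85 through a median of 12.08 to 12.28 log2 in the 32 exposed arrays, against 11.74 through 11.87 to 11.97 in the 8 controls. Of the exposed arrays, 26 lay above every control. The difference was 0.21 log2 (SE 0.04, limma adjusted p = 0.00193), or 16.0% more signal. Mal, a lipid-raft proteolipid that sorts myelin membrane, had 11.41, 11.70 and 12.10 as its lowest, median and highest values in exposed arrays, against 11.38, 11.49 and 11.74 in controls. Here 13 exposed arrays lay above every control, and the difference of 0.22 (SE 0.06) did not pass (limma adjusted p = 0.0797). Mobp, a small basic protein of the compact layers, lay between 11.43 and 11.95 in exposed arrays (median 11.69) and between 11.39 and 11.61 in controls (median 11.53), and 22 exposed arrays were above every control. Its difference of 0.17 (SE 0.04) did not pass either (limma adjusted p = 0.0902).

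Mbp, the basic protein that glues the inner membrane faces together, differed less. It ran from 11.87 to 12.46 in exposed arrays (median 12.12) and from 11.91 to 12.12 in controls (median 12.05). The groups overlapped at both ends, and 17 exposed arrays lay above every control. The difference was 0.10 log2 (SE 0.04, limma adjusted p = 0.503, 95% interval 0.02 to 0.19). Its second probe set, dimmer at a mean of 9.0 log2, gave -0.01 (SE 0.03, limma adjusted p = 0.989). The deviations of these 2 Mbp probe sets from their group means correlated at r = 0.21 over the 40 arrays.

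Of the proteins outside the compact layers, Cnp, Mag and Mog passed. Cnp, an enzyme-like protein that keeps the cytoplasmic channels of myelin open, was between 11.70 and 12.12 in exposed arrays (median 11.90), against 11.67 to 11.79 in controls (median 11.74). As many as 27 of the 32 exposed arrays lay above every control, the highest count of the 10 genes, and the difference was 0.17 log2 (SE 0.03, limma adjusted p = 0.0163). Mag, an adhesion protein of the membrane that faces the axon, ran from 10.99 to 11.54 in exposed arrays (median 11.29) and from 10.95 to 11.17 in controls (median 11.06). It was above every control on 26 exposed arrays and differed by 0.23 (SE 0.05, limma adjusted p = 0.0158). Mog, an immunoglobulin-like protein of the outermost surface, ran from 11.39 to 11.94 in exposed arrays (median 11.66) and from 11.23 to 11.66 in controls (median 11.41). The highest control, female replicate 1, lay at the exposed median (8 of 8 controls were at or below it), and the difference was 0.24 (SE 0.05, limma adjusted p = 0.0245).

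Ermn and Opalin showed no call. Ermn, an oligodendrocyte protein that binds the actin cytoskeleton, was between 10.75 and 11.36 in exposed arrays (median 11.05) and between 10.92 and 11.22 in controls (median 10.99). Only 6 exposed arrays lay above every control and 5 lay below every control, and the difference was 0.06 log2 (SE 0.06, 95% interval -0.05 to 0.17, limma adjusted p = 0.926). Opalin, a sialylated membrane glycoprotein of oligodendrocytes, had the widest spread within groups (SD 0.23 log2) and differed by 0.17 (SE 0.09, limma adjusted p = 0.691). Aspa, the enzyme that splits N-acetylaspartate into aspartate and acetate, ran from 8.36 to 9.15 in exposed arrays (median 8.81) and from 8.40 to 8.71 in controls (median 8.58). It differed by 0.20 (SE 0.06, limma adjusted p = 0.177), and 23 exposed arrays lay above every control while 1 lay below all of them.

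**Figure D1:**
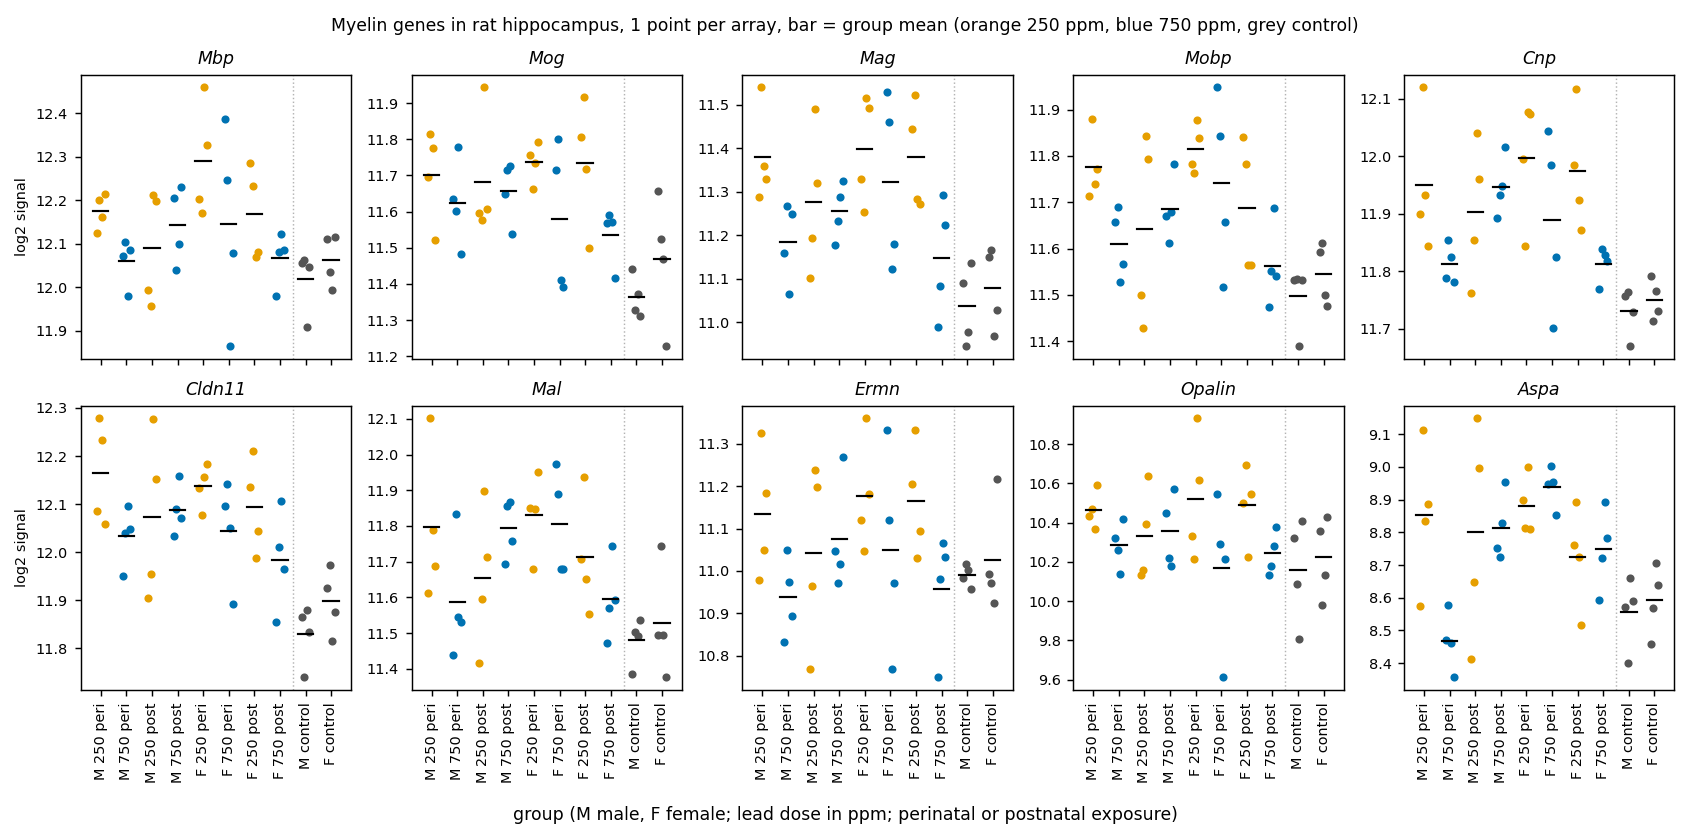
Log2 signal (y axis) of each of the 10 myelin genes by group (x axis), with the 8 exposed groups to the left of the dotted line and the controls to the right. Each point is 1 array and each bar the mean of 4. For Cnp, 27 of the 32 exposed arrays sit above every control, and for Ermn 6 do.

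The order of the groups was similar from gene to gene. Females at 250 ppm perinatal had the highest mean for 8 genes, males at 250 ppm perinatal for Cldn11 and females at 750 ppm perinatal for Aspa. Both groups exposed perinatally to 250 ppm were among the 3 highest for all 10 genes. The arrays labelled male control were the lowest for 8 genes, and males at 750 ppm perinatal were the lowest for Ermn and Aspa. The arrays labelled female control were among the 3 lowest for 9. From the highest to the lowest group the means spanned 0.24 log2 (Ermn) to 0.47 log2 (Aspa). For 9 genes no gap between neighbouring groups in this order reached the within-group SD, and for Mbp 1 gap did. Averaged over the 10 genes, 25 of the 32 exposed arrays lay above the highest control array (11.15). Those averages differed widely within some exposed groups: 11.45, 11.38, 11.07 and 11.17 in females at 750 ppm perinatal, and 11.06, 11.13, 11.45 and 11.36 in males at 250 ppm postnatal. In males at 750 ppm postnatal they lay within 11.24 to 11.35.

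Males exposed perinatally to 250 ppm had higher Cldn11, the one call in the 8 comparisons of single exposed groups with controls of the same sex label. Cldn11 was 12.09, 12.28, 12.23 and 12.06 log2 in these males, against 11.87, 11.74, 11.88 and 11.83 in male controls. All 4 exposed arrays lay above all 4 controls, and the difference was 0.33 (SE 0.06, limma adjusted p = 0.0231), where 0.0582% of all probe sets were called higher. The call was lost without the 3 sex-mismatched controls (0.34, adjusted p = 0.0830), without the 3 flattened arrays (0.34, adjusted p = 0.184), and without male control replicate 2 or 4 or exposed replicate 2 or 3 (adjusted p = 0.0680 to 0.147). Mag was 11.29, 11.54, 11.36 and 11.33 in the exposed males, against 11.09, 10.95, 10.98 and 11.14 in male controls. It did not overlap either, at a difference of 0.34 (SE 0.09, limma adjusted p = 0.184). In all, 7 of the 10 genes had exposed arrays that all lay above the controls, as did 1.64% of all probe sets. All 10 averaged higher (54.1% of all probe sets), 8 of them at an unadjusted p under 0.05 (4.33%). The median difference of the 10 was 0.30, the highest of the 8 exposed groups. Markers of neighbouring tissue and of blood also differed here, with no call: all 9 choroid plexus and ependyma genes were lower (median -0.59 log2) and all 4 red blood cell genes higher (median 0.16). The part of these lists in the myelin differences of this and the other 7 groups was not tested.

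In males exposed perinatally to 750 ppm, 8 of the 10 genes averaged above male controls (57.7% of all probe sets), with a median difference of 0.11 log2, and none was called (limma, lowest adjusted p = 0.374, for Cldn11, where 0.0205% of all probe sets were called higher). Mog was 11.63, 11.60, 11.78 and 11.48 in these males, against 11.44, 11.33, 11.37 and 11.31 in male controls. It did not overlap and differed by 0.26 (SE 0.09). Cnp and Cldn11 did not overlap either, which makes 3 of 10, against 2.27% of all probe sets. Aspa ran the other way, at 8.47, 8.58, 8.46 and 8.36 in exposed males, against 8.57, 8.40, 8.66 and 8.59 in male controls, and these overlapped (difference -0.09, SE 0.11, limma adjusted p = 0.876). At an unadjusted p under 0.05, 2 of the 10 were higher, against 4.71% of all probe sets. The median difference was 0.07 without male control replicate 3. Here too all 9 choroid plexus genes averaged lower (median -0.91), and 3 of the 4 red blood cell genes did (median -0.07), with no call.

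Males exposed postnatally had all 10 genes above male controls at both doses (48% of all probe sets at 250 ppm and 45.5% at 750 ppm), and none was called. At 250 ppm the median difference was 0.17 log2 and the lowest limma adjusted p was 0.337 (Cldn11), with 0.0274% of all probe sets called higher. There the arrays fell apart: Cldn11 was 11.91, 11.95, 12.28 and 12.15 in the exposed males, of which the first pair lay just above the highest male control (11.88). Only Cldn11 and Mog did not overlap (1.49% of all probe sets), and 5 genes had an unadjusted p under 0.05 (3% of all probe sets, higher). At 750 ppm the arrays of a group lay closer together and the median difference was 0.22, with 0.0274% of all probe sets called higher too. Cnp was 11.89, 11.93, 11.95 and 12.02 in these males, against 11.76, 11.76, 11.67 and 11.73 in male controls, a difference of 0.22 (SE 0.06, limma adjusted p = 0.277). Of the 10 genes, 7 did not overlap (2.42% of all probe sets) and the same number had an unadjusted p under 0.05 (3.99%, higher). Cldn11 had the lowest adjusted p at 750 ppm (0.217). At 250 ppm 8 of the 9 choroid plexus genes averaged higher (median 0.90) and so did all 4 red blood cell genes (median 0.15). At 750 ppm the same 2 counts were 8 of 9 (median 0.32) and 4 of 4, with a median of 0.62 for red blood cell genes, and none was called. The summed signal of the red blood cell genes was 11.84 to 12.68 log2 in males at 750 ppm postnatal, against 11.55 to 12.01 in male controls, so the ranges overlapped.

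Females exposed perinatally to 250 ppm had all 10 genes above female controls (53.5% of all probe sets), with a median difference of 0.27 log2 and no call (limma, lowest adjusted p = 0.268, for Cnp, where 0.00685% of all probe sets were called higher). Cnp was 11.995, 11.84, 12.08 and 12.07 in these females, against 11.79, 11.71, 11.77 and 11.73 in female controls, a difference of 0.25 (SE 0.06). Mbp was 12.20, 12.17, 12.46 and 12.33, against 12.11, 12.04, 11.99 and 12.12 in female controls. Neither overlapped, and they were among 7 of the 10 that did not (2.13% of all probe sets). At an unadjusted p under 0.05, 8 genes were higher (3.52% of all probe sets). Set against both control groups together, the same arrays gave calls for Mag, Cnp and Cldn11 (0.34, 0.26 and 0.27 log2, limma adjusted p = 0.0333, 0.0301 and 0.0258), where 0.151% of all probe sets were called higher. All 9 choroid plexus and ependyma genes averaged lower than in female controls, with a median of -1.68 and no call. Their summed signal was 10.5 to 13.7 log2 in these females and 10.1 to 14.1 in female controls, so the ranges overlapped. All 4 red blood cell genes averaged lower too (median -0.30, no call).

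Females exposed perinatally to 750 ppm are the exposed group whose title numbers share the block of the controls. There 9 of the 10 genes averaged above female controls (50.3% of all probe sets), with a median difference of 0.14 log2, and none was called (limma, lowest adjusted p = 0.385, for Aspa, with 0.147% of all probe sets called higher). Aspa was 8.95, 9.0, 8.95 and 8.85 in these females, against 8.46, 8.57, 8.71 and 8.64 in female controls. It was the single gene of the 10 without overlap (2.58% of all probe sets), at a difference of 0.35 (SE 0.11). Opalin averaged -0.06 (SE 0.15), with 1 exposed array at 9.62. At an unadjusted p under 0.05, 6 genes were higher (3.89% of all probe sets). A fit restricted to the 3 groups of that block called 0 of the 10 as well, and 0.0582% of all probe sets higher. All 9 choroid plexus genes averaged lower (median -0.67) and all 4 red blood cell genes higher (median 0.22), with no call.

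Postnatally exposed females had the smallest differences at 750 ppm. At 250 ppm all 10 genes averaged above female controls (49.5% of all probe sets, median 0.19 log2) and none was called (limma, lowest adjusted p = 0.586, for Cnp, with 0.0103% of all probe sets called higher). Mag was 11.44, 11.52, 11.28 and 11.27 in these females, against 11.15, 11.17, 10.97 and 11.03 in female controls. It did not overlap, nor did Cnp and Cldn11 (3 of 10, 1.37% of all probe sets), and 4 genes had an unadjusted p under 0.05 (2.17%, higher). At 750 ppm 9 genes averaged higher (52.7% of all probe sets), the median difference was 0.06 and no gene was called (limma, lowest adjusted p = 0.9999, 0.0137% of all probe sets called higher). Cldn11 was 11.85, 12.01, 12.11 and 11.97 there, against 11.93, 11.97, 11.82 and 11.88 in female controls, and the groups overlapped. None of the 10 was free of overlap (1.55% of all probe sets), and none had an unadjusted p under 0.05 (2.45%, higher). Without exposed replicate 3 the median difference was 0.02. Choroid plexus genes averaged lower at 250 ppm for 7 of 9 (median -0.17) and higher at 750 ppm for 7 of 9 (median 0.05). All 4 red blood cell genes averaged lower at both doses (medians -0.24 and -0.15), and none of either list was called.

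**Figure D2:**
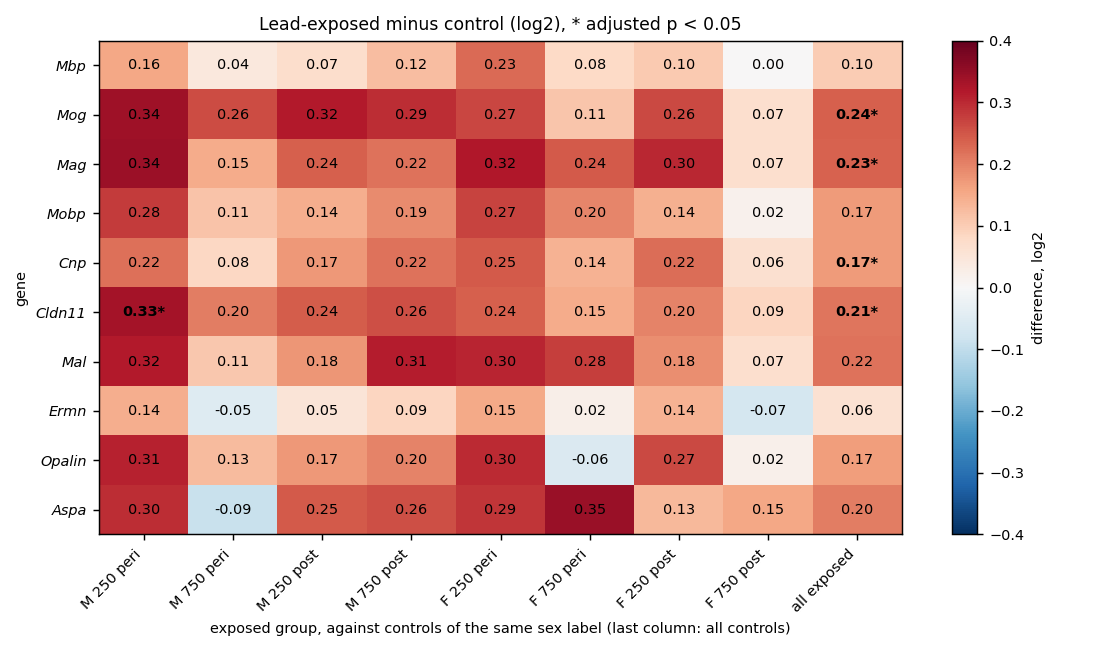
Difference in log2 signal, lead-exposed minus control, of the 10 genes (rows) in each exposed group against the controls of its sex label and, in the last column, over all exposed groups against both control groups. Colour gives sign and size, and a star marks an adjusted p under 0.05. The stars are Cldn11 in males at 250 ppm perinatal and Mog, Mag, Cnp and Cldn11 in the last column.

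The doses were compared by setting exposed groups against each other, in the fit to all 40 arrays, so that control arrays entered the estimate of the spread but not the differences. Over all 4 pairs of groups, the 10 genes averaged lower at 750 than at 250 ppm, by a median of -0.09 log2 (51.1% of all probe sets averaged lower). This contrast over all groups was added after the data were seen. None passed (limma, lowest adjusted p = 0.364, 0.0856% of all probe sets called), and 8 of 10 were lower at an unadjusted p under 0.05, against 3.20% of all probe sets. Mag averaged 11.23 at 750 ppm and 11.36 at 250 ppm, a difference of -0.13 (SE 0.04, 95% interval -0.22 to -0.04). Within pairs, the median was -0.17 in males exposed perinatally, -0.10 in females exposed perinatally and -0.14 in females exposed postnatally, but 0.03 in males exposed postnatally. No gene was called in any of the 4 pairs by limma, where 0.0411%, 0.0856%, 0% and 0.0103% of all probe sets were called in the order just given. At an unadjusted p under 0.05, 5, 1, 4 and 0 of the 10 were lower, against 2.36%, 3.8%, 1.47% and 2.27% of all probe sets. The 2 groups of each perinatal pair have numbers from different blocks, and dose cannot be told apart from block in them.

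Window and sex were compared next. Over all groups, postnatal minus perinatal exposure gave a median of -0.02 log2, with values from -0.09 (Mobp) to 0.00 (Cnp), and no call (limma, lowest adjusted p = 0.341, 0.065% of all probe sets called, 1 of the 10 and 12.6% of all probe sets at an unadjusted p under 0.05). This contrast, too, was added after the data were seen. The pairs at 750 ppm, like the perinatal dose pairs, compare different number blocks. In the 4 single pairs no gene was called (limma, lowest adjusted p = 0.129, for Aspa in males at 750 ppm, at 0.35 with SE 0.11). At an unadjusted p under 0.05, 3 genes were higher after postnatal than after perinatal exposure in males at 750 ppm (Cnp, Mal and Aspa) and 3 were lower in females at 750 ppm (Mag, Mobp and Mal). None of the 10 reached it at 250 ppm in either sex. All probe sets reached it, in either direction, in 6.36% and 19.4% of cases in males at 250 and 750 ppm, and in 5.98% and 5.07% in females. In the direction of the named genes at 750 ppm, 6.34% of all probe sets were higher in males and 2.82% lower in females. Of all probe sets, 0.00342% and 0.175% were called in males at 250 and 750 ppm, and 0.0103% and 0.0548% in females. Exposed females minus exposed males gave a median of 0.03, and the 95% intervals of all 10 genes lay within -0.16 to 0.20. No gene was called between the sexes (limma, 0.0924% of all probe sets called, 0 of 10 and 13.4% of all probe sets at an unadjusted p under 0.05). In the 4 tests of whether the lead difference itself depended on sex, no gene was called (limma, lowest adjusted p = 0.593). The lowest belonged to Aspa at 750 ppm perinatal, where the difference of males minus that of females was -0.43 (SE 0.15). That was the single unadjusted p under 0.05 among the 10 genes in those 4 tests, in which 3.35% (250 ppm perinatal), 2.3% (250 ppm postnatal), 7.41% (750 ppm perinatal) and 4.25% (750 ppm postnatal) of all probe sets reached it. Of all probe sets, 0.0205% were called at 750 ppm perinatal and 0% in each of the other 3 tests. These tests use the controls by their sex labels. Males and females at 750 ppm perinatal have numbers from different blocks, so sex cannot be told apart from block in the test at that dose and window. The comparison of exposed females with exposed males includes these groups too.

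Within groups the 10 genes varied together from array to array, as a description of arrays that share their RNA, normalization and slope. With each group mean taken off, the 45 pairs correlated at a median Pearson r of 0.64 (Spearman rho 0.60) over the 40 arrays. The closest pair was Mbp with Mobp (r = 0.87, rho = 0.85), followed by Mbp with Opalin (0.86, rho = 0.81). Mag followed the mean of the other 9 most closely (r = 0.91, and 0.89 without the 2 arrays farthest from the median), and Mog least (r = 0.48, and 0.38 without 2). Mog and Opalin hardly moved together (r = 0.07, rho = -0.01). Cldn11, Mal and Aspa correlated with each other at 0.66 to 0.76 and with Opalin at 0.20 to 0.27. The 8 genes outside the gene lists whose within-group deviations were most like the mean of the 10 were Nkd1, Dennd5a, Slc44a1, Rffl, Myo1d, Plekhh1, Erbb3 and Dbndd2 (r = 0.85 to 0.81 over 40 arrays). Of these, the choline transporter Slc44a1 was higher in exposed groups (0.15 log2, SE 0.03, limma adjusted p = 0.0191). The Slc44a1 call was not checked in fits with arrays left out. Erbb3, a receptor of the neuregulin family, differed by 0.16 (SE 0.06, limma adjusted p = 0.350) and Plekhh1 by -0.06 (SE 0.05, limma adjusted p = 0.907).

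**Figure D3:**
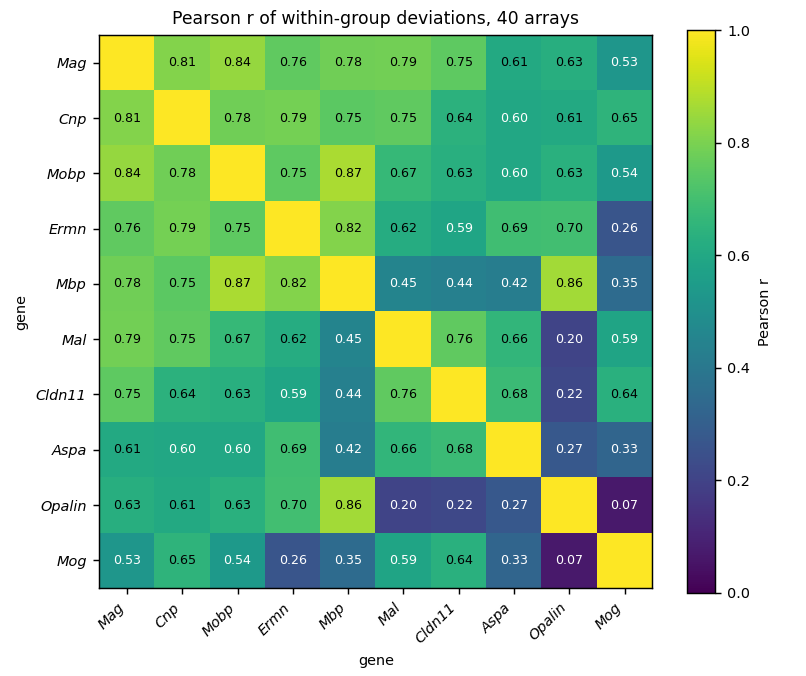
Pearson r between the 10 genes (both axes) over 40 arrays after each group mean was taken off, ordered by how closely each gene follows the other 9. Values run from 0.07 (Mog with Opalin) to 0.87 (Mbp with Mobp).

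Other genes of the oligodendrocyte lineage mostly averaged higher over all exposed groups too. Of 35 other measured oligodendrocyte and myelin genes, 31 averaged above controls (median 0.10 log2) and 3 were called. These were the lysophosphatidic acid receptor Lpar1 (0.23, SE 0.05, limma adjusted p = 0.0347), the actin-severing protein Gsn (0.22, adjusted p = 0.0357) and Ugt8, which makes the galactolipids of myelin (0.26, SE 0.06, adjusted p = 0.0410). Of 22 listed genes of myelin lipid synthesis 13 were measured, and 9 of these averaged higher (median 0.03). The 2 called were Ugt8 and the fatty acid hydroxylase Fa2h (0.25, SE 0.05, limma adjusted p = 0.0273). Of 13 listed transcription factors of the lineage only 7 were measured, and these were split, with 4 averaging higher and 3 lower (median 0.12, lowest -0.04). Of these, Olig1 was called (0.19, SE 0.04, adjusted p = 0.0365) and Sox8 was not (0.14, adjusted p = 0.0797). Among 13 genes of precursors and newly formed oligodendrocytes, 11 averaged higher (median 0.10) and Gpr17, a receptor of cells on the way to myelination, was called (0.19, SE 0.04, adjusted p = 0.0158). Over all 14506 genes the median was 0.00, with 57 called higher and 15 lower. Of 13 axonal partners of myelin, 8 averaged higher (median 0.02). Lgi3, a secreted protein, was called (0.13, SE 0.03, adjusted p = 0.0407) and the paranodal Nfasc was not (0.09, adjusted p = 0.286). The calls in these lists were not checked in fits with arrays left out. Without the control arrays that went against their sex label, 0.0924% of all probe sets were called higher in this comparison, against 0.301% with them. All calls of the mature myelin genes were lost in that fit. The limit set by number block applies here too.

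Among lists of other cell types, 1 gene of peripheral myelin was called over all exposed groups. All 11 astrocyte genes and all 4 red blood cell genes averaged higher, as the myelin genes did, at medians of 0.02 (0.01 to 0.10) and 0.03 (0.02 to 0.09). The median differences were 0.02 for 11 microglial genes, 0.01 for 12 endothelial and mural genes, 0.01 for 12 neuronal genes and -0.03 for 10 genes of thalamus and striatum. Choroid plexus and ependyma genes (9 measured) all averaged lower, with a median of -0.31 and no call (Folr1, -0.37, SE 0.42, adjusted p = 0.948). Their summed signal ranged from 10.1 to 14.5 log2 over exposed arrays and from 10.1 to 14.3 over controls. Ttr, the transthyretin gene of choroid plexus, ran from 7.69 to 13.55 over the 40 arrays, and its part in the myelin differences was not tested. The 5 genes of peripheral myelin had a median of 0.10. Of these, Egr2, a transcription factor of Schwann cells that neuronal activity also induces, was lower (-0.40, SE 0.09, adjusted p = 0.0288) and Pmp22 was not called (0.10, adjusted p = 0.381). The Egr2 call was not checked in fits with arrays left out. With group means taken off, the mean of the 10 myelin genes correlated across arrays with the other oligodendrocyte list (r = 0.89), lipid synthesis (0.77), the transcription factors (0.71) and the precursor list (0.56). In the other lists, r was 0.40 for axonal partners, 0.38 for thalamus and striatum (0.43 without the 2 arrays farthest from the median) and 0.26 for choroid plexus genes. It was 0.19 for astrocyte, 0.08 for neuronal, 0.07 for peripheral myelin, 0.06 for endothelial and mural, -0.12 for microglial and -0.15 for red blood cell genes.

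**Figure D4:**
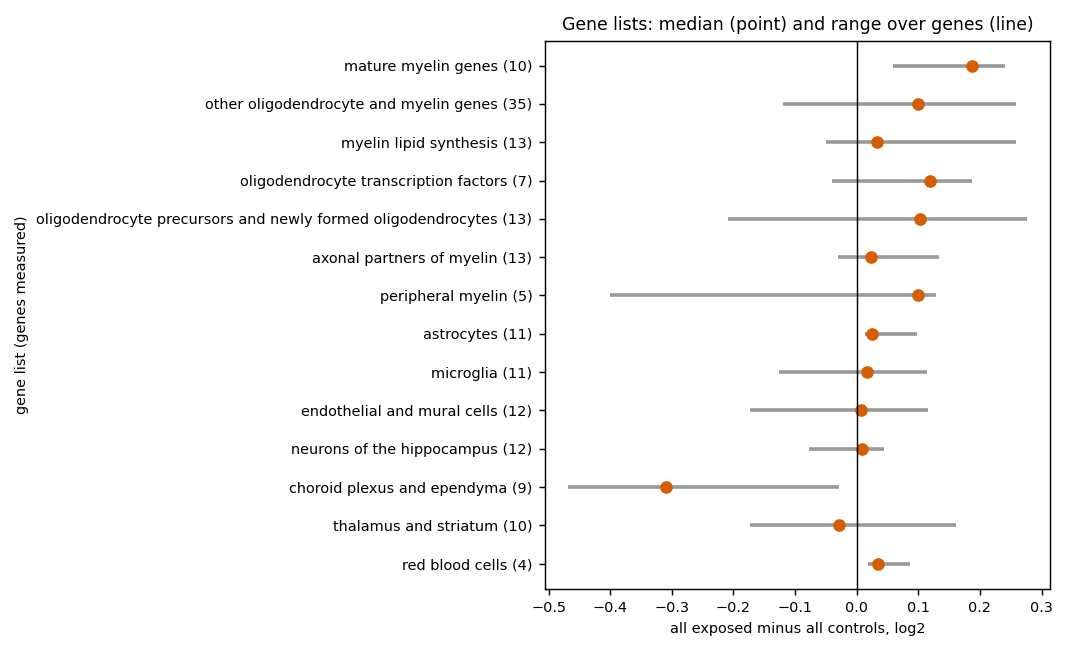
Difference over all exposed groups minus both control groups (x axis, log2) for each gene list (y axis, with the number of genes measured). Points are medians over genes and lines run from the lowest to the highest gene. The mature myelin genes (0.06 to 0.24), astrocyte genes (0.01 to 0.10) and red blood cell genes (0.02 to 0.09) lie wholly above 0, and choroid plexus genes wholly below 0.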

How the data were processed

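The deposited values are log2 signals per probe set, produced by the authors with RMA: background correction, quantile normalization across arrays and a summary over probes. The submitters' processing notes name RMA and Partek, and give no versions. Settings and genome build are not given in the sources used here. All 29214 probe sets on 40 arrays entered as deposited, 15310 of them with 1 gene symbol and 323 with several in the platform annotation. Quantile normalization would remove a shift shared by all genes.

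Where a gene had several probe sets, the brightest on average stood for it. limma 3.58.1 (R 4.3.3) fitted 10 group means to all 40 arrays, with empirical Bayes and a variance trend. Two-sided p-values were adjusted by Benjamini-Hochberg over all probe sets, separately in each of 25 contrasts. The fit was also run on simulated data with independent noise per probe set. Those data held no correlation between genes, no number blocks and no mislabelled or flattened arrays, so they do not bear on these limits. The genes, lists and tests were chosen with earlier results of these data known. In other lists the text names called genes and those of smallest p, and for likeness the 8 of highest r. List symbols were updated through RefSeq. Alternatives left out the dimmest 40% of probe sets, repeated quantile normalization, centred arrays, weighted arrays, dropped the variance trend, averaged a gene's probe sets, changed which arrays entered or left out each array. The number of arrays limits the precision. Figures were drawn with matplotlib 3.10.9.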

Additional observations from a re-analysis of the deposited data

Results flagged for a closer look

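Of 100 sets of 4 arrays (10 genes in 10 groups), 4 held an array far from the other 3, where chance gives about 1 in 20. Mbp and Mobp were both low on male control replicate 3, at 11.91 log2 for Mbp (nearest array 12.05) and 11.39 for Mobp (nearest array 11.53). Mog was high on replicate 3 of males at 250 ppm postnatal, at 11.94 (nearest 11.61), and low on replicate 4 of females at 750 ppm postnatal, at 11.41 (nearest 11.57). No test of a dose, a window or a sex-by-lead difference passed for any of the 10 genes.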

How the results depend on the processing

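The median differences of the 10 genes moved by less than the SD between arrays of a group (0.11 log2) in all settings run, and over all exposed groups the median stayed within 0.18 to 0.21. That SD is above the median difference of females at 750 ppm postnatal (0.06) and close to that of males at 750 ppm perinatal (0.11). In these groups the measure could hardly show a loss of the difference. With 1 array left out, their medians were as low as 0.02 and 0.07. The calls changed between settings. Cldn11 in males at 250 ppm perinatal was the 1 call there, and 0 genes were called with the compared groups only (adjusted p = 0.127), with array weights (0.164), without the sex-mismatched controls (0.0830), without the flattened arrays (0.184) and without both kinds (0.169, added after seeing the data). In that order 0.0103%, 0.024%, 0.0342%, 0.0103% and 0.0137% of all probe sets were called higher. Leaving out single arrays gave 0 to 1, with 0.0171% to 0.0377% of all probe sets called higher where it gave 0. Over all exposed groups 4 genes were called, 0 without the sex-mismatched controls or without both kinds (0.0924% of all probe sets called higher in each), and 1 to 5 with single arrays left out. Cldn11 alone remained without male control replicate 3 or female control replicate 4, and Cnp and Cldn11 without male control replicate 2 or female control replicate 3. In that order, 0.113%, 0.12%, 0.12% and 0.0993% of all probe sets were called higher in these fits. Mal was called there with array weights (adjusted p = 0.0325, 0.414% of all probe sets called higher) and without the flattened arrays (0.0426, 0.397%), and without replicate 1 of males at 250 ppm postnatal (0.0458) or female control replicate 2 (0.0465). Mobp was called without replicate 2 of males at 250 ppm postnatal (0.0432) or replicate 3 of females at 750 ppm perinatal (0.0381), and Mog was lost without male control replicate 4 (0.0563). For the single-array fits that gained Mal or Mobp or lost Mog, the share of all probe sets called higher is not given here. These gains and losses therefore cannot be set against it. Females at 250 ppm perinatal had 3 calls against both control groups (0.151% of all probe sets called higher) and 0 against female controls (0.00685%). Leaving out arrays also removes degrees of freedom, and otherwise the cause was not tested. With the mean of both probe sets, Mbp differed by 0.05 over all exposed groups. No paired analysis was possible because the labels give no replicate numbers, and those used here only name arrays in listing order. The deposited signals carry no depth and no detection call, so signal over background was not measured.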

Other observations

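Some genes of the lists were called in single groups and not over all exposed groups. These calls were not checked in fits with arrays left out, and both male groups named here hold flattened arrays. Of all probe sets, 0.0582% were called higher in males at 250 ppm perinatal, 0.0205% in males at 750 ppm perinatal and 0.147% in females at 750 ppm perinatal. Tmem63a, an ion channel gene that oligodendrocytes express, averaged 8.55 log2 in males at 250 ppm perinatal and 7.89 in male controls (difference 0.66, SE 0.13, limma adjusted p = 0.0321), and 0.13 (SE 0.07, adjusted p = 0.751) over all exposed groups. Gldn, gliomedin of peripheral nodes, averaged 7.52 in males at 750 ppm perinatal and 7.03 in male controls (0.50, SE 0.09, limma adjusted p = 0.0140). Gjb6, an astrocyte connexin that couples to oligodendrocytes, averaged 9.92 in females at 750 ppm perinatal and 9.50 in female controls (0.42, SE 0.09, limma adjusted p = 0.0475).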
